A study of Homo sapiens with 3 samples.

Results

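The peaks described here lie beside the longest stretch of each chromosome in which neither library had a peak. UM-UC-3, an established human bladder carcinoma line, was profiled by ChIP-seq, the sequencing of DNA that an antibody pulls down with chromatin, here with acK130-H2A antibodies against an acetylated form of histone H2A. One library came from cells given cigarette smoke media (10%, 3 days) and 1 from air-exposed cells, and an input library was not analysed here. Both cultures were the same line in the same serum-supplemented medium, and the smoke text stands on all 3 samples, so the groups rest on the treatment label. On chromosomes 1 to 22 the smoke and air peaks were pooled, the longest stretch between consecutive peaks was taken, and peaks with a summit within 3 Mb of either edge were kept. This gave 2079 peaks, 1038 smoke and 1041 air, of 49709 on these chromosomes and 50985 in all. The members were thus selected on measured values, the summit positions in both lists, so their number and density are a description. With 1 library per group, no difference below has a replicate check or a p-value, and intervals cover counting error only.

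Centromeres are built on long arrays of alpha satellite DNA, and the chromatin around them is mostly constitutive heterochromatin, compacted, poor in genes and low in histone acetylation. Acetylation neutralises the positive charge of a lysine on a histone tail and is usually found in open chromatin. Short reads from satellite and recently duplicated DNA fit many places in the genome and are hard to assign to one. The edges of such blocks hold families of duplicated genes, clusters of zinc finger genes and, on the short arms of the acrocentric chromosomes (13, 14, 15, 21 and 22), the ribosomal RNA gene arrays.

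Few promoter windows beside the gaps overlapped a peak, and those that did overlapped air peaks. Of 1231 promoter windows in these flanks (250 bases before to 50 after a gene's start, RefSeq, GRCh38.p14), 5 overlapped a peak, 0.406%, with 5 air and 0 smoke peaks. Elsewhere on these chromosomes 0.326% of 32494 windows overlapped a smoke peak and 0.379% an air peak. The air share beside the gaps was thus near that elsewhere. The difference between the libraries rests on few windows and was not tested. Only 2 of the 5 windows held the summit itself, at the long noncoding gene LOC105374746 and at the olfactory receptor gene OR5AK2. The 250 bases before each start are shown because these are the peaks for which the sequence under the summit can be read; capitals mark the bases covered by the peak.

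LOC105374746: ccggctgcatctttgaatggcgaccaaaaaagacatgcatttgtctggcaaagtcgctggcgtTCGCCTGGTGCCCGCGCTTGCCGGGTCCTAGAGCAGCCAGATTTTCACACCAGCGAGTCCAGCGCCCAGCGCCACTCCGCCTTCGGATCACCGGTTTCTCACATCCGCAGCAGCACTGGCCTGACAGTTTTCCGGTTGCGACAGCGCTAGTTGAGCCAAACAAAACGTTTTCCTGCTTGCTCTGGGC

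OR5AK2: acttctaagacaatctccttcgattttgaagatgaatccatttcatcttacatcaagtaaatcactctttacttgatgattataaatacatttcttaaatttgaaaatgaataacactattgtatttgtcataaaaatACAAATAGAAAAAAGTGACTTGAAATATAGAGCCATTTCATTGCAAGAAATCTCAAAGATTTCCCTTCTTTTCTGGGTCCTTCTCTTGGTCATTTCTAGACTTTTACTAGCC

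The first window lies on the plus strand at chr5:42992025-42992274 and its peak covered 187 of these bases, with a fold (the authors' enrichment over background) of 3.15 and 6 sequenced DNA fragments at the summit. The second lies on the plus strand at chr11:56988664-56988913 and its peak covered 112 of them, with a fold of 3.48 and 5 fragments. The windows differed in base composition: 58.7% of the bases were G or C in the first 300-base window and 31.0% in the second, against a median of 57.7% over the promoters of the flanks. The TATA box letters TATAAA, sought on both strands, were in the OR5AK2 window and in 14.2% of the flank promoters, against 11.5% of all promoters in the table. The other 3 windows, all of noncoding genes, had G or C at 35.7%, 63.3% and 53.7% of bases. None of the 32 microRNA hairpins of the flanks overlapped a peak. Hairpins elsewhere were not counted, so this does not set the flanks apart.

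The 3 longest gaps lay on chromosomes 1, 9 and 16, known for large heterochromatic blocks next to the centromere. The gap was 19.4 Mb on chromosome 1 (125143473 to 144560815), 17.4 Mb on chromosome 9 (43140686 to 60542543) and 12.3 Mb on chromosome 16 (34116954 to 46410457). The next longest were 5.51 Mb on chromosome 18 and 4.90 Mb on chromosome 7, and the median over 22 chromosomes was 2.99 Mb. The rule did not find a stretch next to a centromere on every chromosome. On chromosome 14 the gap was 0.914 Mb long (82431533 to 83345645) and began 62.8 Mb from the first peak, far along the long arm. On chromosome 15 it was 1.01 Mb long, only 1.004 times the second longest, and began 10.0 Mb from the first peak. On chromosomes 13 and 21 a single peak or a pair of peaks stood before the gap, and on chromosome 22 the lower side spanned 1.70 Mb, so 3 of the 44 flanks were shorter than 3 Mb.

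**Figure D1:**
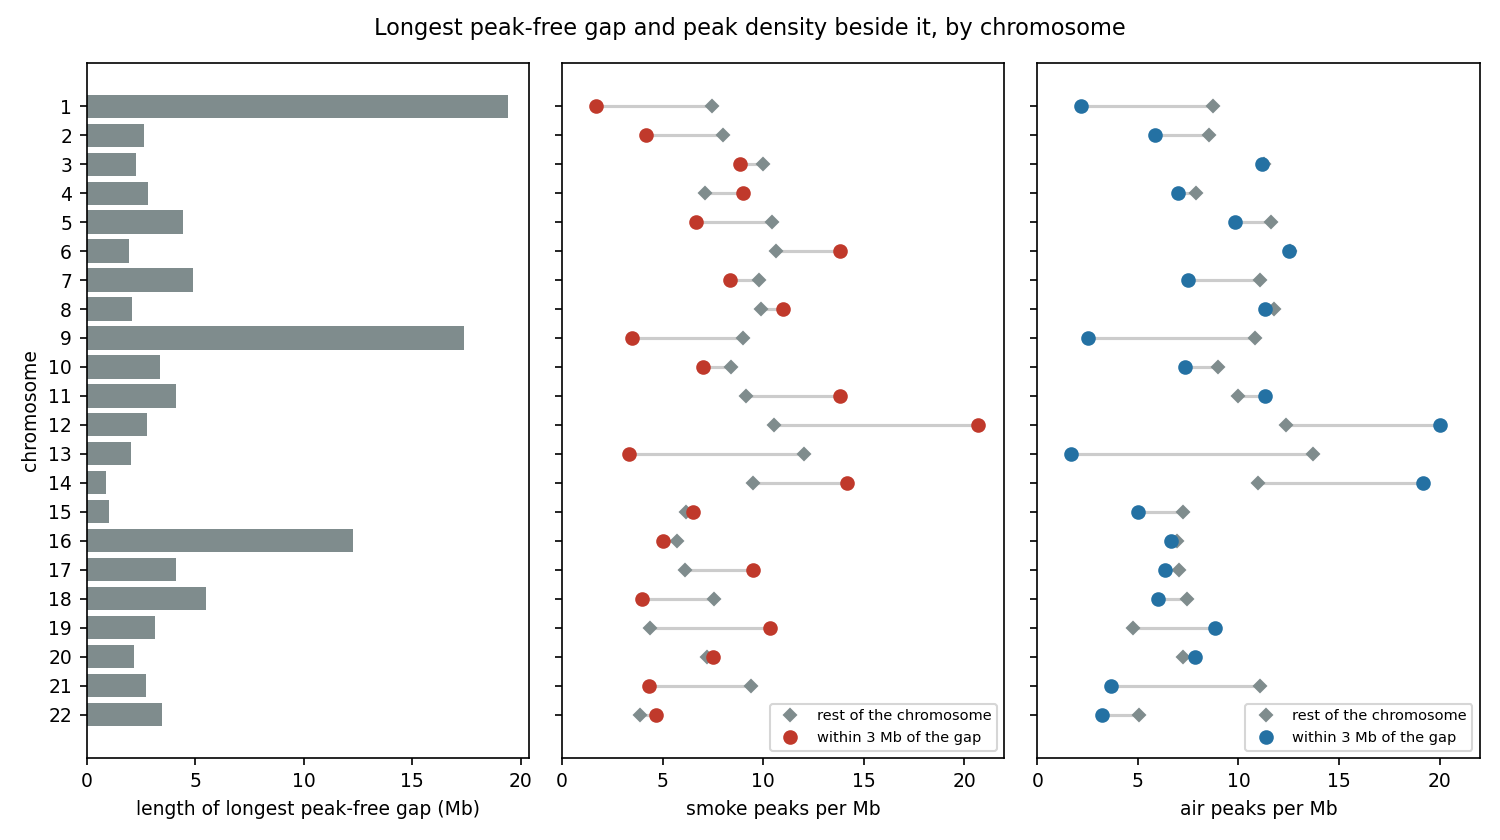
Length of the longest peak-free gap (left, Mb) and peaks per Mb within 3 Mb of it (circles) and in the rest of the chromosome (diamonds), for the smoke (middle) and air (right) libraries, 1 library each. Chromosomes 12, 14 and 19 have clearly more peaks beside the gap than elsewhere in both libraries, and chromosomes 1, 9, 13 and 21 have clearly fewer.

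None of the 10 peaks at the edges of the 5 longest gaps had its summit inside an annotated gene. In the first 0.5 Mb beside all gaps 25.5% of smoke and 28.5% of air summits lay in one. Within 3 Mb these shares were 41.1% and 41.8%, and in the rest 59.1% and 59.0%. The 10 edge peaks are few and were placed by the rule, and the difference was not tested. The gap of chromosome 1 was bounded by air peaks on both sides, with folds of 3.48 and 5.22. The upper one lay 31.9 kb from PPIAL4F, a cyclophilin gene of a duplicated family. On chromosome 9 both edges were smoke peaks, with folds of 3.19 and 3.76, the upper one 372 kb from SPATA31A5. Chromosome 16 had a smoke peak below the gap (fold 3.76) and an air peak above it (fold 3.48), 168 kb from SHCBP1. The chromosome 18 gap began at an air peak of fold 4.64, 467 kb from ANKRD30B. It ended at the peak with the most fragments of these 10, a smoke peak (20921040 to 20921251) with a fold of 5.78 and 13 fragments, 25.8 kb from ROCK1, a kinase gene of the actomyosin cytoskeleton. On chromosome 7 the edges were an air peak of fold 4.61, 633 kb from ZNF716, and a smoke peak of fold 3.34. Over all 44 edges, 24 were smoke and 20 air peaks.

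How much sequence data stood behind a peak could be worked out. The deposited fold and −log10 p of all 50985 peaks were matched to within 0.0001 by a whole number of fragments at the summit and a Poisson background, with fold equal to fragments plus 1 over background plus 1. The median peak rested on 6 fragments in each list. The commonest background was 0.861 fragments in smoke, in 64.7% of peaks, and 0.724 in air, in 53.8%. Beside the gaps 255 of 1038 smoke peaks, 24.6%, had 5 or fewer fragments, against 21.2% in the rest (95% Wilson interval 20.7 to 21.8), and 39.2% had 7 to 9 (36.3 to 42.2), against 44.3%. In air the share with 5 or fewer was 34.0% (31.2 to 36.9) against 35.3% (34.7 to 35.9). The background stood above its commonest value at 35.8% of all smoke and 46.8% of all air peaks on chromosomes 1 to 22, and at 347 smoke peaks (33.4%, 30.6 to 36.4) and 440 air peaks (42.3%, 39.3 to 45.3) beside the gaps.

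Over all chromosomes the flanks of the gaps were sparser in air peaks than the rest. For smoke peaks the interval of the ratio held 1, but not once the edge peaks were left out. Smoke peaks stood at 8.32 per Mb beside the gaps (7.83 to 8.85, exact Poisson interval) and at 8.70 per Mb in the rest, a ratio of 0.956 (0.899 to 1.016). Within 1 Mb of the gaps the smoke ratio turned to 1.10 (0.993 to 1.21), and the air ratio was 0.922 (0.832 to 1.02). Air peaks stood at 8.35 per Mb (7.85 to 8.87) and 9.87 per Mb, a ratio of 0.846. The ratio was below 1 on 11 of 22 chromosomes in smoke and on 17 in air. The flanks are short and of equal length on most chromosomes, while long chromosomes make up most of the rest, so the ratios within chromosomes are the closer comparison; their medians were 0.962 in smoke and 0.866 in air. Without chromosome 12, which had the most peaks beside its gap, the pooled ratios were 0.894 (0.837 to 0.954) and 0.796 (0.746 to 0.849). Without the edge peaks, which are members by construction, they were 0.934 (0.878 to 0.993) and 0.829 (0.779 to 0.882). Without chromosomes 13, 14, 15, 21 and 22 the smoke ratio was 0.982 and its interval held 1 (0.917 to 1.05). Whether smoke and air differ in this thus depended on the peaks counted.

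Single chromosomes differed far more than the libraries did. By the ratio of both libraries pooled, chromosomes 19, 12 and 14 were highest (2.09, 1.78 and 1.63) and chromosomes 13, 1 and 9 lowest (0.194, 0.237 and 0.303). Chromosome 19 had a ratio of 2.36 in smoke (10.3 against 4.38 peaks per Mb) and 1.85 in air (8.83 against 4.77). Chromosome 12 had 1.96 and 1.61, and chromosome 14 had 1.49 and 1.75. In smoke alone, chromosomes 17 (1.55) and 11 (1.51) stood above chromosome 14. Chromosome 13 had 0.277 in smoke (3.33 against 12.02 per Mb) and 0.121 in air (1.67 against 13.7). Chromosome 1 had ratios of 0.224 and 0.247, and chromosome 9 of 0.389 and 0.231. In both libraries the first 3 chromosomes stood above 1 and the other 3 below it. Since the pooled ratio chose these chromosomes, that was largely set by the choice and is no separate check. The libraries come from 1 cell line and carry the same control code. The ends of a gap could differ as well: on chromosome 11 the lower side held 42 peaks and the upper side 109, and on chromosome 5 they held 76 and 23.

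Smoke peaks were denser in the first 0.5 Mb from the gaps than in every step further out to 10 Mb. With the edge peaks left out, air peaks were denser there than in all steps but that from 2 to 2.5 Mb. In the first 0.5 Mb from the edges smoke peaks stood at 11.6 per Mb (10.2 to 13.1) and air peaks at 10.2 (8.87 to 11.7). From 0.5 to 3 Mb smoke ran between 7.17 and 8.10 per Mb and air between 7.43 and 9.32. From 3 to 10 Mb smoke ran between 6.20 and 7.71 and air between 7.68 and 9.18. Each edge is a peak by construction, which adds 24 smoke and 20 air peaks to the first step. Without them it held 10.4 smoke peaks per Mb (9.09 to 11.9), still above the next highest step to 3 Mb at 8.10. For air it held 9.24 per Mb (7.98 to 10.6), below the air step from 2 to 2.5 Mb at 9.32. The highest of the other air steps to 10 Mb, at 9.18, was lower but inside that interval. The first step above the chromosome 12 gap alone holds 50 of these 457 peaks.

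**Figure D2:**
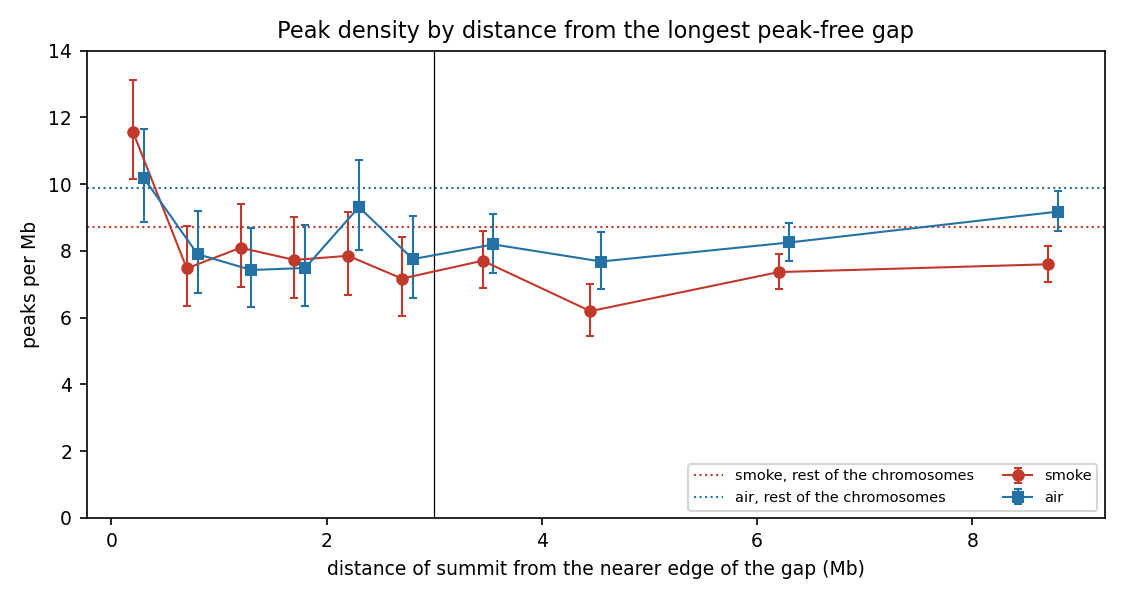
Peaks per Mb (y axis) by distance of the summit from the nearer edge of the gap (x axis, Mb), for smoke (circles) and air (squares) with exact 95% Poisson intervals; dotted lines give the density in the rest of the chromosomes and the vertical line marks 3 Mb. The first step, at 11.6 smoke and 10.2 air peaks per Mb, includes the 44 edge peaks; without them it stands at 10.4 and 9.24, and the air value is then below that from 2 to 2.5 Mb.

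The most crowded 0.5 Mb lay just above the gap of chromosome 12 (37444734 to 37940132), with 27 smoke and 23 air peaks and no annotated gene under any summit. Smoke folds there ran from 2.20 through a median of 3.76 to 6.98, and air folds from 2.87 through 4.06 to 6.96. Fragments ran from 5 to 12 in smoke and from 4 to 11 in air. Of these peaks 3 smoke and 3 air ones overlapped a peak of the other library. ALG10B, a glucosyltransferase gene of N-linked glycosylation, was the protein-coding gene nearest to the leading peaks here, and its paralog ALG10 that nearest to the leading peak below the gap. The background there averaged 1.03 fragments in smoke and 0.786 in air. Next came the steps at 0.5 to 1 Mb and 1 to 1.5 Mb of the same flank, and one 1 to 1.5 Mb above the chromosome 14 gap, with 28 peaks each. The first 0.5 Mb above the chromosome 19 gap held 16 smoke and 10 air peaks.

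The balance of the libraries shifted towards smoke beside the gaps. Smoke peaks made up 49.9% of the peaks there (47.8 to 52.1) and 46.9% of the rest (46.4 to 47.3). Leaving out any 1 chromosome gave 49.4% to 50.7% beside the gaps, and the share of the rest stayed outside the interval in 22 of 22 cases. These cases share most of their peaks, so they show only that no single chromosome carried the shift. Smoke peaks outnumbered air peaks beside the gap on 12 of 22 chromosomes, whereas air peaks outnumbered smoke peaks in the rest on 21. The smoke share beside the gap exceeded that of the same chromosome's rest on 14 of 22. On only 2, chromosomes 17 and 22, did the interval leave the rest out. Chromosome 17 had 57 smoke and 38 air peaks beside its gap, a smoke share with an interval of 49.9% to 69.3%, against 46.6% in its rest. Chromosome 22 had 22 and 15, 59.5% (43.5 to 73.7) against 43.5%, the lower bound itself at this rounding. Chromosome 14 leaned the other way, with 85 smoke and 115 air peaks, 42.5% (35.9 to 49.4) against 46.4%.

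The smoke share varied by side and distance within overlapping intervals. Above the gaps the smoke share was 51.9% (48.9 to 54.7), and below them 47.6% (44.5 to 50.8). In the first 0.5 Mb it was 53.2% (48.6 to 57.7), with 133 smoke peaks of 233 above the gaps and 110 of 224 below. From 0.5 to 1 Mb the share was 48.6%, from 1 to 1.5 Mb 52.1%, from 1.5 to 2 Mb 50.8% and from 2 to 2.5 Mb 45.7%, so it followed no steady course with distance. From 1.5 to 2 Mb it was higher below the gaps (53.8%) than above them (48.2%). Among peaks with a −log10 q, the authors' significance corrected for multiple testing, of at least 2 it was 37.7% beside the gaps (33.3 to 42.3) and 38.1% in the rest (37.1 to 39.0), and among peaks of 7 or more fragments 55.5% (52.1 to 58.8) and 55.3%. In neither stronger class did the flanks stand apart from the rest. Beside the second longest gaps the share was 47.9% (45.0 to 50.8), and within 5 Mb of the outermost peaks of the chromosomes 45.5% (43.6 to 47.5). The differences between these stretches were not tested.

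**Figure D3:**
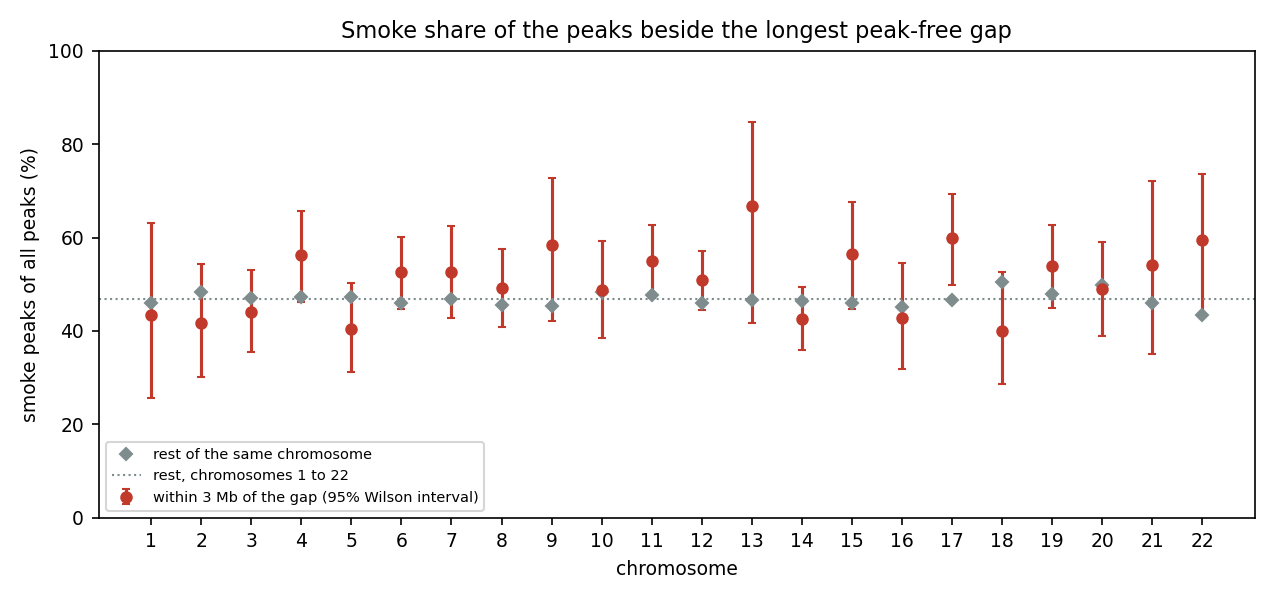
Smoke peaks as a share of all peaks (y axis, %) within 3 Mb of the gap (circles, 95% Wilson intervals) and in the rest of the same chromosome (diamonds), by chromosome (x axis); the dotted line is the rest of all chromosomes, 46.9%. The diamonds lie close to the line, and the circles scatter from the lowest on chromosome 18 (24 of 60 peaks) to 66.7% on chromosome 13, which had 15 peaks.

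Smoke peaks beside the gaps passed the looser significance line less often and were narrower than in the rest, and air peaks above the gaps passed the stricter line more often, each by intervals that leave the rest out and with no test of the difference. A −log10 q of at least 2 was reached by 17.4% of the smoke list and 25.1% of the air list on chromosomes 1 to 22. Beside the gaps 170 smoke peaks reached it, 16.4% (14.3 to 18.8), and 281 air peaks, 27.0% (24.4 to 29.8). The air share was 30.0% (26.3 to 34.0) above the gaps and 23.6% (20.1 to 27.6) below, and the rest lay between (24.5 to 25.5). At the looser line of q of 0.05 or lower, smoke had 40.2% (37.2 to 43.2) beside the gaps and 44.8% (44.2 to 45.5) in the rest, and air 62.3% (59.4 to 65.2) and 60.5% (59.9 to 61.1). A fold of at least 5, reached by 5.80% of all smoke and 9.93% of all air peaks, was reached by 60 and 115 peaks here, 5.78% (4.52 to 7.37) and 11.05% (9.28 to 13.1). Median widths were 218 bp (212 to 224) in smoke, against 227 (225 to 228) in the rest, and 279 bp (272 to 289) against 278 (276 to 279) in air.

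A pair of smoke peaks carried far more fragments than the rest of either list. The first, on chromosome 17 at 26881284 to 26881497, had 119 fragments over a background of 12.4, a fold of 8.97 and −log10 q of 65.8. It lay 114 kb above the gap and 413 kb from WSB1, and the nearest air peak was 21.8 kb away. The second, on chromosome 21 at 8420122 to 8420566, had 44 fragments over a background of 11.7, a fold of 3.56 and −log10 q of 6.89. Its summit lay inside CDC27P10, a pseudogene of a cell cycle ubiquitin ligase subunit, between the ribosomal RNA genes RNA45SN3 (18.1 kb away) and RNA45SN1 (12.7 kb away). The nearest air peak was 579 kb away. The third highest smoke count beside the gaps was 14, and the highest in the rest 19.

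Both peaks also had the highest backgrounds of all, and a high background recurred beside the gaps. A background of at least 3 fragments was found at 4 of 1038 smoke peaks, 0.385% (0.150 to 0.987), against 0.0986% of the rest (0.0651 to 0.149). In air it was found at 2 of 1041, 0.192% (0.0527 to 0.698), against 0.0316% (0.0160 to 0.0624). Within 5 Mb of the outermost peaks of the chromosomes the shares were 0.529% in smoke (0.243 to 1.15) and 0.0736% in air. Beside the second longest gaps they were 0.544% (0.185 to 1.59) and 0%. In smoke, such backgrounds were thus not particular to the flanks of the longest gaps. In the rest the background reached at most 4.37 in smoke and 3.68 in air. The air pair lay in the immunoglobulin kappa locus on chromosome 2 (89779800 to 89780105, background 3.98, fold 2.61) and 144 kb from SYNDIG1 on chromosome 20 (background 3.37, fold 2.29). The other 2 smoke peaks, with backgrounds of 3.64 and 3.28, lay 108 kb above the chromosome 19 gap and inside the noncoding gene LINC02088 on chromosome 17. The part of high background in these peaks was not tested.

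**Figure D4:**
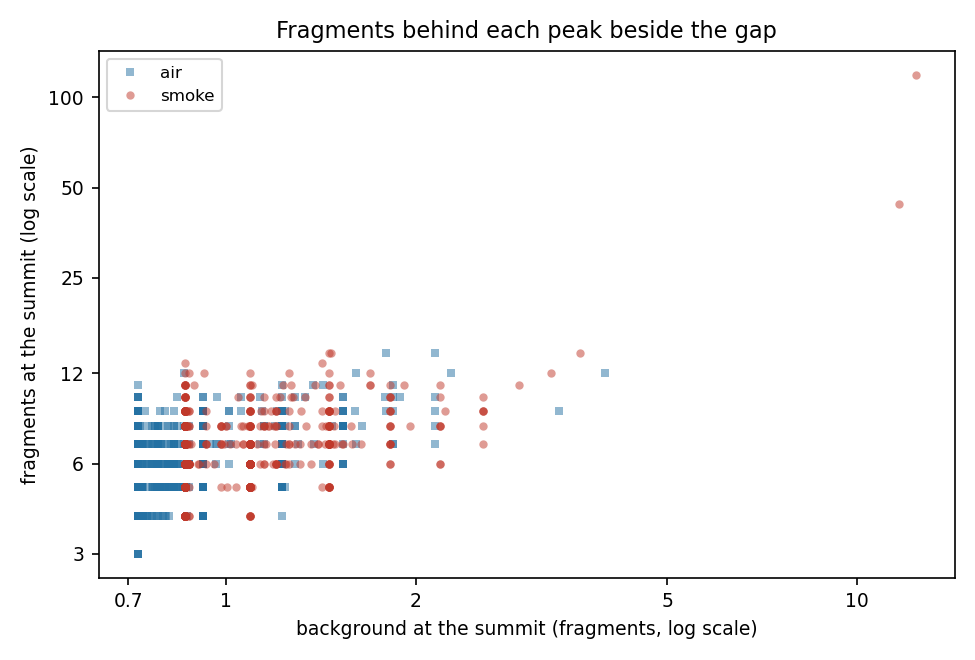
Fragments at the summit (y axis, log scale) against background at the summit (x axis, log scale) for the 1038 smoke (circles) and 1041 air (squares) peaks beside the gaps. The points at 119 and 44 fragments are the chromosome 17 and chromosome 21 smoke peaks, and no other peak exceeds 14 fragments.

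The other leading smoke peaks had ordinary backgrounds. On chromosome 12 one lay 11.5 kb below the gap (34652316 to 34652520, fold 7.52, 13 fragments) and others 328 kb and 618 kb above it (folds 6.98 and 6.94). Air peaks stood 11.04, 6.70 and 71.4 kb from these 3. Within genes, smoke peaks lay in HGSNAT, a lysosomal acetyltransferase gene of heparan sulfate breakdown, on chromosome 8 (fold 6.76), in BICD1, a dynein adaptor gene, on chromosome 12 (fold 6.11), and in KCNIP3, a gene for a calcium sensor of potassium channels, on chromosome 2 (fold 6.09). None of the 8 leading smoke peaks overlapped an air peak. Only 1.61% of all smoke peaks on the chromosomes analysed did, so this does not set the leading peaks apart.

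In air the leading peak lay in a zinc finger gene. It was inside ZNF254 on chromosome 19 (24047323 to 24047550), 55.9 kb below the gap, with 12 fragments, a fold of 6.99 and −log10 q of 5.04. The nearest smoke peak was 11.1 kb away. The next lay on chromosome 12 at 37813144 to 37813581 (fold 6.96), 3.39 kb from a smoke peak. Peaks of equal fold, 6.38, lay 18.7 kb from the septin gene SEPTIN14 on chromosome 7, 323 kb from ZNF33B on chromosome 10, and at 9751065 to 9751297 and 10079271 to 10079481 on chromosome 21, the last 442 kb from TPTE. NINL, a centrosomal protein gene, on chromosome 20 and STON2, an endocytic adaptor gene, on chromosome 14 held the others (folds 5.37 and 5.99). None of these 8 overlapped a smoke peak. Only 1.43% of all air peaks on the chromosomes analysed did, so this does not set the 8 apart.

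Overlap between the libraries was rare beside the gaps, and its share depended on the distance taken. Over chromosomes 1 to 22, 1.61% of smoke and 1.43% of air peaks overlapped a peak of the other library by at least 1 bp. Beside the gaps 17 of each did, 1.64% of smoke (1.03 to 2.61) and 1.63% of air peaks (1.02 to 2.60). Among peaks within 1 Mb of the gaps the shares were 2.75% in smoke (1.54 to 4.86), against 1.59% in the rest, and 2.89% in air (1.62 to 5.11), against 1.41%, with the air interval leaving the rest out. Counting peaks of the other library up to 1 kb away, within 3 Mb of the gaps, the shares were 5.88% in smoke (4.60 to 7.48), against 4.41% in the rest, and 5.76% in air (4.50 to 7.35), against 3.86%. Here the rest lay outside both intervals. Peaks of the same library were also closer to each other in smoke: the median smoke peak lay 28.4 kb from the next smoke peak (25.3 to 31.7), against 33.1 kb in the rest (32.4 to 33.8). In air these distances were 27.8 kb (25.3 to 32.2) and 28.8 kb (28.3 to 29.3).

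The 17 shared pairs lay outside protein-coding genes. A summit lay inside such a gene in 0 of 17 pairs, which allows a share of up to 17.6%, and inside any annotated gene in 1. For comparison, 41.1% of all smoke and 41.8% of all air summits beside the gaps lay in an annotated gene of any kind, and 28.2% and 31.0% in a protein-coding one. The pairs fell on 8 chromosomes, with 5 pairs on chromosome 12, 3 each on chromosomes 11 and 17 and 2 on chromosome 19, and 6 lay within 500 kb of the gap. The best pair, ranked by the worse of its ranks in the lists, was on chromosome 12 at 37863289 to 37863779 in smoke (fold 5.37, 9 fragments) and 37863554 to 37863753 in air (fold 5.21, 9 fragments), and it was the 1 pair with a −log10 q of at least 2 in both. The others of the best 5 lay 99.4 kb from ZNF722, 25.2 kb from the potassium channel gene KCNJ18, 47.3 kb from SPATA31A6 and 162 kb from CDRT15L2. Their smoke folds were 4.30, 4.30, 3.54 and 3.76, and their air folds 4.64, 4.06, 4.97 and 4.06.

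Protein-coding genes were sparser beside the gaps, at 5.32 per Mb against 7.20 elsewhere, though annotated genes of all kinds stood at 23.6 per Mb against 20.99 elsewhere. Protein-coding gene spans covered 28.9% of the flanks and 45.6% of the rest. Summits inside such genes made up 28.2% of smoke (25.6 to 31.0) and 31.0% of air peaks (28.3 to 33.9) beside the gaps, against 43.0% and 43.4% over all of chromosomes 1 to 22. In the first 0.5 Mb genes covered 16.1% of bases, and 31 of 243 smoke summits, 12.8%, and 35 of 214 air summits, 16.4%, lay in them. From 2.5 to 3 Mb the values were 37.2%, 36.7% and 45.3%. Inside genes smoke peaks stood at 8.14 per Mb beside the gaps and 8.33 in the rest, and air peaks at 8.97 and 9.51. Between genes, smoke stood at 8.40 and 9.02 per Mb and air at 8.10 and 10.2.

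**Figure D5:**
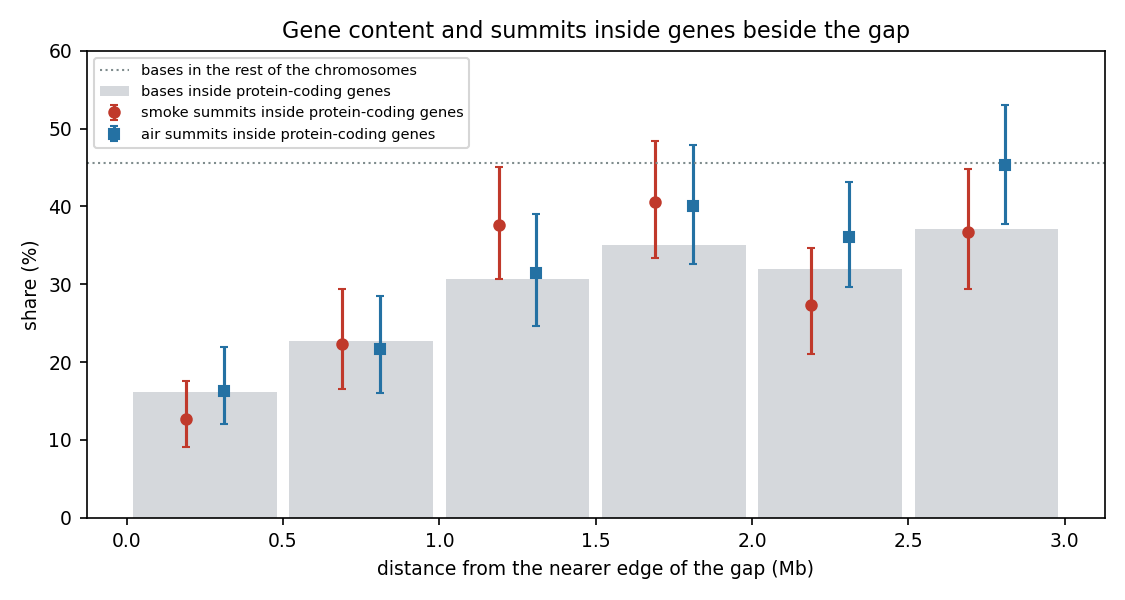
Share of bases inside protein-coding genes (bars, %) and of smoke (circles) and air (squares) summits inside them (95% Wilson intervals), by distance from the nearer edge of the gap (x axis, Mb). Protein-coding content is 16.1% in the first 0.5 Mb and 37.2% from 2.5 to 3 Mb, below the 45.6% of the rest (dotted line), and the summits inside genes are also fewest in the first step.

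A gene was counted as holding a peak where any base of the peak lay in its span. Of 664 protein-coding genes in the flanks, 89 held peaks of both libraries, 64 of smoke alone, 69 of air alone and 442 none, so 33.4% had a peak. These counts depend on gene length, and the genes with most peaks, named here after their values were seen, were long. KHDRBS2 on chromosome 6, encoding an RNA-binding splicing regulator, held 8 smoke and 14 air peaks over 744 kb, with median folds of 3.76 and 4.06. NRXN3 on chromosome 14, a neurexin gene of synaptic adhesion, lies partly inside its flank and held 4 smoke and 18 air peaks there. In both genes air peaks were the more numerous, and no smoke peak overlapped an air peak. Over the chromosomes analysed only 1.61% of smoke and 1.43% of air peaks overlapped one of the other library. The absence of overlap thus does not set these genes apart.

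Other genes leaned either way. KIF21A on chromosome 12, a kinesin gene, was the densest of the 10 genes with most peaks, at 8.01 peaks per 100 kb, with 9 smoke and 3 air peaks. CEP128, a centriole appendage gene on chromosome 14, held 9 and 3, and CPNE8, a copine gene on chromosome 12, held 8 and 2. DST on chromosome 6, whose product dystonin links cytoskeletal filaments, held 8 and 5. Air led at SLC2A13, a myo-inositol transporter gene (5 smoke and 10 air), whose span overlaps that of REDIC1 (4 and 10) so that some peaks count for both. SPIDR, a homologous recombination scaffold gene on chromosome 8, held 5 and 7, and GABRG3, a GABA receptor subunit gene on chromosome 15, held 6 and 5. The highest fold in these genes was 6.35 in smoke, at CPNE8, and 5.80 in air, at NRXN3, SLC2A13 and REDIC1. KAT6A, a histone acetyltransferase gene on chromosome 8, held 4 smoke and 3 air peaks in 123 kb.

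Among the gene lists, zinc finger genes held peaks most often. Of 58 in the flanks, 7 held peaks of both libraries, 13 of smoke alone and 7 of air alone, 46.6% in all against 33.4% of all protein-coding genes, with a median length of 38.7 kb against 22.4 kb. They held 31 smoke and 21 air peaks. ZNF99 on chromosome 19 held 4 smoke and 0 air peaks, ZNF254 3 and 2, ZNF248 on chromosome 10 3 and 2, and ZNF723 2 and 0, while ZNF98 and ZNF730 held 0 and 2 each. Families duplicated near centromeres had peaks at 9 of 34 genes, 5 in both libraries: ANKRD36C held 2 smoke and 1 air peaks, TPTE 2 and 1, and POTEA, CNTNAP3B and ANKRD36B 1 and 1. Reads from such near-identical copies could belong to another copy.

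Small genes held few peaks. Of 57 olfactory receptor genes, OR4S1, OR5AS1 and OR8J1 had a smoke peak each, and OR8J3, OR5T3 and OR5AK2 an air peak each. None of the 91 immunoglobulin segment genes had one, at a median length of 0.523 kb. Of all 2948 annotated genes of the flanks 13.9% had a peak, at a median length of 2.69 kb. Peaks did lie in the immunoglobulin kappa locus outside these segments, such as a smoke peak of fold 6.45 and an air peak of fold 5.22. Solute carrier genes had peaks at 2 of 10, SLC2A13 and, in air alone, the phosphate transporter gene SLC20A2. Only 2 lipid metabolism genes of 70 lay in the flanks, HMGCS1, the cytosolic synthase of the mevalonate pathway, and ACSS1, a mitochondrial acetyl-CoA synthetase, and neither had a peak. The replacement histone gene H3-5 had none, and no cadherin or protocadherin gene lay there.

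Few peaks lay at protein-coding gene ends, which may be a start or a stop. Within 1 kb of such an end lay 1.58% of all smoke and 1.84% of all air summits on chromosomes 1 to 22, and 15 smoke summits, 1.45% (0.878 to 2.37), and 22 air summits, 2.11% (1.40 to 3.18), beside the gaps. With noncoding genes and pseudogenes included, the shares at gene ends were 6.84% in smoke (5.46 to 8.54) and 6.24% in air (4.93 to 7.88), against 4.92% and 5.39% in the rest, so the smoke interval left the rest out. These shares were 7.84% and 8.84% within 5 Mb of the outermost peaks, and 7.80% and 8.35% beside the second longest gaps. The higher smoke share was thus not particular to the flanks of the longest gaps. Among peaks at protein-coding gene ends, the leading smoke ones were at HMGCLL1, a gene of HMG-CoA cleavage, and URI1, a prefoldin-like gene. The first lay on chromosome 6 (55678977 to 55679126, fold 4.30, 140 bp outside the gene) and the second on chromosome 19 (fold 4.30). TMEM267, ANKRD30A, the beta-defensin gene DEFB119 and ANKRD36C followed with folds of 3.90, 3.82, 3.71 and 3.76. In air they were at DHFR2, a dihydrofolate reductase gene, on chromosome 3 (94058484 to 94058761, fold 5.80), ZNF536 on chromosome 19 (fold 5.80) and ADA2, an adenosine deaminase gene, on chromosome 22 (fold 5.79). OR4C15, ZNF131 and the cystatin gene CST9L followed with 4.99, 4.27 and 3.85. The first 3 air peaks rested on 9 fragments each, and those at HMGCLL1 and URI1 on 7.

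Few peaks lay right at the limit of 3 Mb. The outermost peaks kept were a smoke peak near NAPB on chromosome 20, 2999 kb from the gap (fold 3.64), and a smoke peak near GUSB on chromosome 7 (fold 4.48). An air peak near NRXN3 on chromosome 14 (fold 3.48) came next. The nearest ones left out were an air peak near MUC19 on chromosome 12 (fold 4.47) and an air peak near EPHA6 on chromosome 3 (fold 4.06). An air peak near FLRT2 on chromosome 14 (fold 3.13) followed. Folds of smoke and air peaks stand on different backgrounds and were not compared across the libraries.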

How the data were processed

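UM-UC-3 ChIP-seq libraries for acetylated H2A came as 1 peak list per library in a 10-column layout, smoke and air. The submitters' processing notes name the tools Bowtie2, MACS and MACS2 and the builds hg38 and mm10, without version, setting or role. Both lists carry the same control code, and the filter that kept these peaks of a longer numbering is not stated. Gene spans came from RefSeq GRCh38.p14. The deposited score is about 10 times the −log10 p, the fold is the authors' ratio over background, the −log10 p and −log10 q are the authors', and the summit position is deposited as an offset. These were used to describe peaks within a list.

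Fragments and background were solved from fold and p (scipy 1.17.1); the method was tested on simulated data. Total depth is unknown. Gaps, flanks and counts used pandas 2.3.3; shares have 95% Wilson intervals. Rest density used the span from first to last peak without gap and flanks. The members, the 8 gene lists and the tests were chosen with earlier results of these data known. Named peaks were, per library, the 8 of highest −log10 q and the 6 highest within 1 kb of a protein-coding gene end; the edges of the 5 longest gaps; the 5 best shared pairs; and peaks over promoter windows. Chromosomes were named by density ratio, 3 highest and 3 lowest pooled (13, 1 and 9). Alternatives covered window, gap, threshold, overlap, gene set and chromosomes. Sequence under other peaks was not analysed here.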

Additional observations from a re-analysis of the deposited data

How the results depend on the processing

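Of 62 alternatives tried on 16 values, 41 kept the value inside its 95% interval (or, for the count of peaks, within 1.5 times), 20 moved it outside and 1 reversed the smoke share; of the ratios, 8 alternatives lay on the other side of 1 than the reported value, 4 of them among those that moved (smoke density within 1 Mb, the smoke share of strong peaks within 1 Mb, and both shares at a −log10 q of 5); those leaving out chromosome 12, chromosomes 14 and 15 or, for the smoke share, the edge peaks, and the limit of 7 fragments, were added after seeing the data. The smoke share reversed at a −log10 q of at least 2 (37.7%, against 38.1% in the rest) and was 55.5% at 7 or more fragments. Within 1 Mb and 5 Mb there were 780 and 3300 peaks, and gaps taken from the smoke or air peaks alone kept 1830 and 1876 of the 2079. The smoke density ratio was 1.10 within 1 Mb, 0.888 within 5 Mb, 0.898 at a −log10 q of at least 2, 0.607 beside the second longest gaps and 0.894 without chromosome 12. The air ratio was 0.922 within 1 Mb, 0.913 at a −log10 q of at least 2 and 0.576 beside the second longest gaps. Both ratios beside the second longest gaps counted the longest gaps, which hold no peaks, as flank or rest. On chromosome 1, for example, the second gap ended at 125068278 and the longest began at 125143473. These ratios are thus no like comparison with the reported ones. The share of strong peaks over that of the rest was 1.09 in smoke within 1 Mb. Over a stricter −log10 q of 5, with 3 smoke and 1 air peaks, it was 4.30 and 0.973. The share with an overlapping peak of the other library over that of the rest was 1.72 in smoke and 2.05 in air within 1 Mb. Within 5 Mb it was 0.838 and 0.903. The share inside protein-coding genes over the rest was 0.380 and 0.427 within 1 Mb and 0.798 and 0.840 within 5 Mb (smoke, then air). The cause was not tested. No paired analysis was possible because each group has 1 library, so no library could be left out either, and most peaks rest on too few fragments to tell single peaks apart.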
